A study of Mus musculus with 6 samples.

Results

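Mir217 and Mir216a are neighbouring microRNA (miRNA) hairpins on mouse chromosome 11 that are best known from the exocrine pancreas. They were followed here in mouse embryonic fibroblasts (MEFs), connective tissue cells cultured from embryos, with 3 wild-type (WT) and 3 Fbxw7 knockout (Fbxw7 KO) small RNA libraries. The pair makes up 2 of the 1155 miRNA rows of the count table, found by gene name. It was chosen because its counts were higher in Fbxw7 KO than in WT, so its levels in the 2 genotypes are given as a description, without a test. All cells were grown in the same medium, DMEM with serum and non-essential amino acids. Neither the way Fbxw7 was removed nor the embryo or culture behind each library is given in the sources used here. FBXW7 is the subunit of an SCF ubiquitin ligase that selects substrates such as Notch, Jun, Myc and cyclin E for breakdown. Fbxw7 mRNA was not analysed here.

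A miRNA hairpin is cut into a short duplex, and the strand that is kept guides Argonaute to transcripts that pair with its seed, bases 2 to 8 of the mature miRNA. The Mir216a and Mir217 hairpins are processed from one long noncoding primary transcript, and their mature miRNAs are abundant in pancreatic acinar cells. In kidney mesangial cells both were described as induced by TGF-beta. MiR-217 is also known as a repressor of the deacetylase Sirt1 in ageing endothelial cells.

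The mature sequences show that the pair is 2 miRNAs with unlike seeds and not a family with a common one. They are from RefSeq on GRCm38.p6, whose chromosomes are those of mm10, and are written 5′ to 3′ with the seed in capitals.
miR-217-5p: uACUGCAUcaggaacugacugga
miR-216a-5p: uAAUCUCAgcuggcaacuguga
miR-216b-5p: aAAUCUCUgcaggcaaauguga
miR-217-3p: cAUCAGUUccuaaugcauugccu
miR-216a-3p: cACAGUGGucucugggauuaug
MiR-216b-5p is shown because it is the closest relative of miR-216a-5p, with 18 of 22 positions identical. The seeds of those 2 share bases 2 to 7 and differ at base 8. No mature miRNA of another gene in the RefSeq table had the full seed of any of these 5 sequences. The longest stretch that the Mir217 hairpin shares with any of 1004 other hairpins, on either strand, was 12 bases, and it was also 12 for Mir216a. That is shorter than a mature miRNA. The count of each row combines the 5p and 3p arms, so which arm was sequenced is not known from these data.

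The Mir216a hairpin lies at 28757012 to 28757083 and the Mir217 hairpin at 28763728 to 28763835, both on the plus strand of chromosome 11 (mm10), with 6644 bases between them. In GENCODE M21 both are in intron 2 of the lincRNA gene Gm12082 (28751633 to 28815767, plus strand, 4 exons), and neither overlaps an exon. RefSeq annotates a different transcript, the long noncoding RNA Mir217hg (28730633 to 28751781). It starts 26379 bases before Mir216a and ends 5230 bases before it, and it shares 149 bases with Gm12082. The third plus-strand hairpin of the locus, Mir216b, lies inside Mir217hg, 10735 bases before Mir216a and outside Gm12082.

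**Figure D1:**
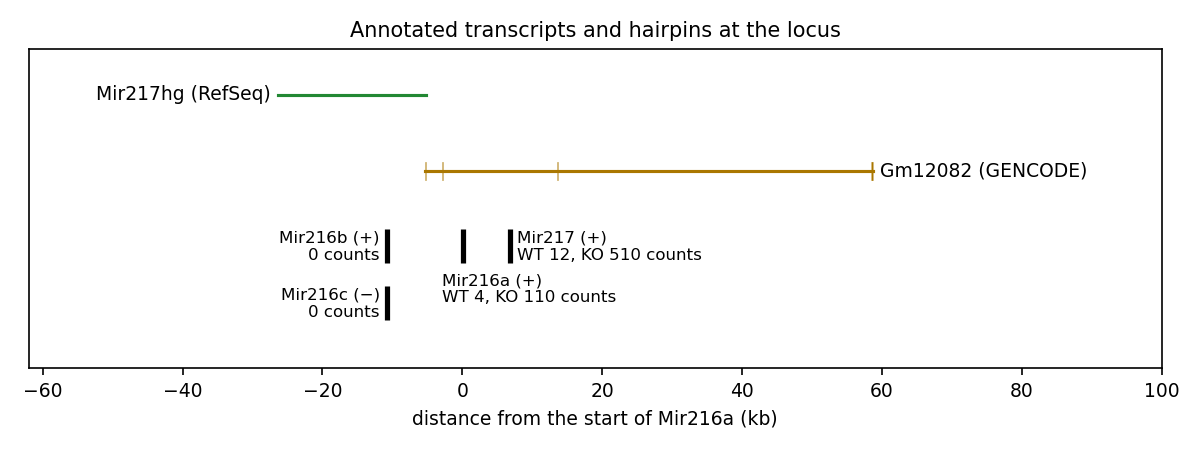
Annotated transcripts (lines, with Gm12082 exons as ticks) and hairpins (black bars) by distance in kb from the start of Mir216a, with + and − for strand and the counts summed over 3 libraries of each genotype. Mir216a and Mir217 lie in the same Gm12082 intron and hold all counts of the locus, while Mir216b and Mir216c, which cover the same bases, stand at 0.

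Mir216b and Mir216c each had 0 counts in all 6 libraries, which does not measure their level. The Mir216c hairpin (28746198 to 28746266, minus strand) lies with all 69 of its bases inside Mir216b (28746191 to 28746276, plus strand). All 22 bases of miR-216b-5p and all 22 of miR-216b-3p fall inside the Mir216c row. Strand was ignored in counting, and by the counting program's default a read over 2 rows is assigned to neither, so a mature miR-216b read could not be counted. Of 18 rows in the table that lie wholly inside a row of the opposite strand, 18 stood at 0. Among all 72 rows that overlap another row 83.3% stood at 0, against 39.2% of the 1083 that overlap none. Mir216a and Mir217 overlap no other row.

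The data on the pair rest on libraries of 2932439 to 5019700 counts, of which 484 to 532 rows had any. On the second principal component of the tested rows, which held 17.5% of the variance, Fbxw7 KO replicate 3 scored −6.45 and the other 5 libraries −2.07 to 3.55. The WT and Fbxw7 KO libraries were told apart by the first component, with 65.2%. The fibroblast list, led by Mir21a, held 56.9% to 58.3% of counts in WT and 57.6% to 61.5% in Fbxw7 KO. Single rows of it did differ. Of its 12 tested rows edgeR called 2 higher in Fbxw7 KO, Mir31 (log2 fold change 1.77) and Mir199b (0.65). It called 1 lower, Mir10a (−0.89). Of all tested rows 15.2% were called higher and 10.2% lower. DESeq2 called 3 rows of the list and limma on FPKM called 3.

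Mir217 was near the limit of detection in every WT library and at an intermediate level in every Fbxw7 KO library. WT replicates 1 to 3 held 4, 5 and 3 reads of Mir217, and Fbxw7 KO replicates 1 to 3 held 221, 223 and 66. On the CPM scale (counts relative to library totals, adjusted by edgeR's TMM factors) these were 0.803, 1.19 and 0.780 CPM in WT and 69.7, 75.7 and 16.9 in Fbxw7 KO. The genotypes did not overlap: the lowest Fbxw7 KO library was above the highest WT library. The mean level was 54.1 ± 32.4 CPM in Fbxw7 KO, beside 0.924 ± 0.230 CPM in WT (SD, n = 3 each). By number of reads, Mir217 stood at ranks 345, 330 and 357 in the WT libraries and at 154, 149 and 200 in the Fbxw7 KO libraries.

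Mir216a was at a lower level, again with Fbxw7 KO replicate 3 as the lowest Fbxw7 KO library. It held 2, 1 and 1 reads in WT replicates 1 to 3 and 50, 49 and 11 in Fbxw7 KO replicates 1 to 3. These were 0.401, 0.238 and 0.260 CPM in WT and 15.8, 16.6 and 2.82 CPM in Fbxw7 KO, again without overlap. The mean level was 11.7 ± 7.74 CPM in Fbxw7 KO, beside 0.300 ± 0.0887 CPM in WT (SD, n = 3 each). With 4 reads in all of WT, the WT level of Mir216a is known only as a range. In WT replicate 2, for example, the 95% Poisson interval ran from 0.00602 to 1.32 CPM, counting error only. The lower end of Fbxw7 KO replicate 3, 1.41 CPM, lay inside the intervals of WT replicates 1 and 3, which reached 1.45 CPM. The interval of Fbxw7 KO replicate 3 for Mir217, 13.1 to 21.5 CPM, lay above those of all 3 WT libraries, which reached at most 2.77 CPM.

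**Figure D2:**
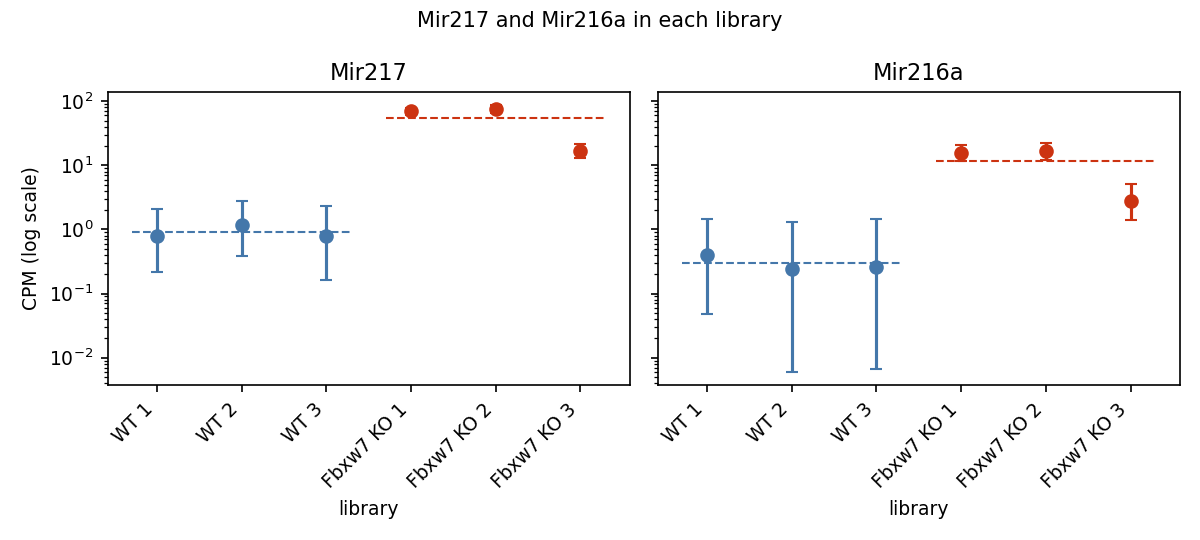
Level of Mir217 (left) and Mir216a (right) in CPM on a log axis for each library, WT in blue and Fbxw7 KO in red. Bars are 95% Poisson intervals (counting error only) and dashed lines are the means of 3 libraries. Fbxw7 KO replicate 3 lies between the WT libraries and the other Fbxw7 KO libraries in both panels, at 16.9 CPM for Mir217 and 2.82 CPM for Mir216a.

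The pair had the largest fitted differences of the comparison. The edgeR log2 fold change of Fbxw7 KO over WT was 5.82 (SE 0.669) for Mir217 and 5.09 (SE 0.841) for Mir216a. These ranked 1 and 2 among 283 tested rows. The next, Mir672, had 3.64. The pair was chosen on this contrast, so the ranks describe the choice and test nothing. Among all tested rows 25.4% passed an adjusted p under 0.05 in either direction, 15.2% as higher in Fbxw7 KO, and 23.7% had every Fbxw7 KO library above every WT library. In these bulk libraries, more cells that make the pair and more of it per cell cannot be told apart.

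**Figure D3:**
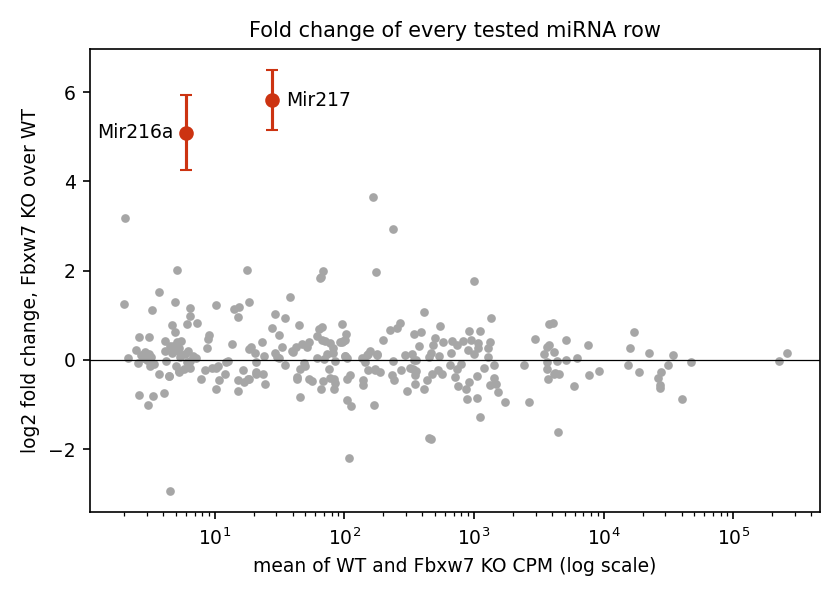
Log2 fold change of Fbxw7 KO over WT against the mean of the 2 genotype means in CPM (log axis) for the 283 tested rows in grey. Mir217 and Mir216a are in red with their SE, at 5.82 and 5.09, above every other row.

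Each Fbxw7 KO library was also set against the sum of the 3 WT libraries, as a ratio of shares of the scaled totals with an exact 95% interval for counting error. For Mir217 the ratio was 75.7 (42.5 to 149) in Fbxw7 KO replicate 1 and 82.3 (46.2 to 162) in replicate 2. In replicate 3 it was 18.4 (9.84 to 37.3). For Mir216a the ratios were 51.4 (18.9 to 196), 54.3 (19.9 to 207) and 9.18 (2.72 to 39.5). These ratios share their WT reads, so the Fbxw7 KO libraries were compared directly. The intervals of the levels in replicates 1 and 2 overlapped, at 60.8 to 79.5 and 66.1 to 86.4 CPM for Mir217 and at 11.7 to 20.8 and 12.3 to 22.0 CPM for Mir216a. Replicates 1 and 2 together were 4.30 times replicate 3 for Mir217 (3.31 to 5.65) and 5.75 times for Mir216a (3.08 to 11.9). Without replicate 3 the ratio of Fbxw7 KO to WT was 78.9 (44.7 to 154) for Mir217 and 52.8 (20.0 to 198) for Mir216a, against 55.3 (31.4 to 108) and 35.8 (13.6 to 134) with it. The 12 WT reads of Mir217 and 4 of Mir216a set most of the width of these intervals.

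The composition of the pair varied less than its level. Mir216a made up 18.5% of the reads of the pair in Fbxw7 KO replicate 1 (exact 95% binomial interval 14.0% to 23.6%), 18.0% in replicate 2 (13.6% to 23.1%) and 14.3% in replicate 3 (7.35% to 24.1%). The summed level of the pair was 85.5, 92.4 and 19.7 CPM in the same libraries. The 3 shares lay within each other's intervals, so a difference in composition was not detectable at this depth. WT held 4 Mir216a reads among 16 of the pair, a share of 25% with an interval of 7.27% to 52.4%, which spans the 17.7% of the Fbxw7 KO libraries together.

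**Figure D4:**
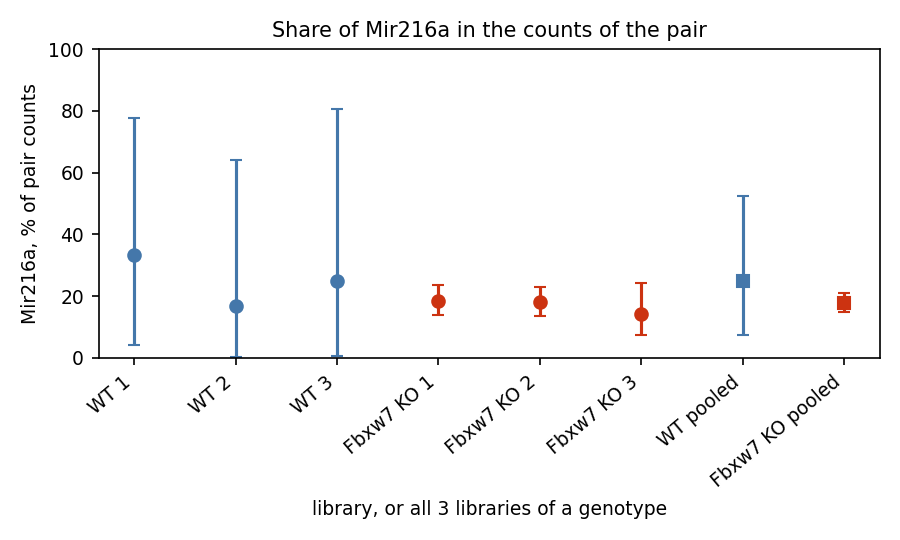
Mir216a as a percentage of the reads of the pair in each library (circles) and over the 3 libraries of a genotype (squares), WT in blue and Fbxw7 KO in red, with exact 95% binomial intervals for counting error. The Fbxw7 KO shares lie between 14.3% and 18.5%, and the WT intervals are wide because WT holds 16 reads of the pair.

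Per length, Mir217 was the more abundant of the pair. The deposited FPKM values, which divide by the row lengths of 108 and 72 bases, were 658, 694 and 159 for Mir217 in Fbxw7 KO replicates 1 to 3 and 223, 229 and 39.8 for Mir216a. The ratio of Mir217 to Mir216a FPKM was 2.95, 3.03 and 4.0 in these libraries. In WT the values were 7.59, 10.5 and 7.20 for Mir217 and 5.69, 3.16 and 3.6 for Mir216a, too few reads for a ratio. Reads of a mature miRNA cover only part of a hairpin, so this scale depends on the annotated hairpin length.

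Fbxw7 KO replicate 3 was far below replicates 1 and 2 for few miRNAs other than the pair. Its level divided by the mean of replicates 1 and 2 was 0.232 for Mir217 and 0.174 for Mir216a. The median of this ratio was 1.02 over the 218 tested rows with a mean of at least 10 CPM in Fbxw7 KO, and 10 of them were under 0.5. The pair stood at ranks 5 and 4 from the lowest, after Mir127 (0.0671), Mir6236 (0.163) and Mir540 (0.167). Mir127 and Mir540 belong to the imprinted Dlk1-Dio3 cluster on chromosome 12. Mir127 varied widely elsewhere too, with 19192, 42813 and 2082 CPM in Fbxw7 KO replicates 1 to 3 and 20040 to 51619 CPM in WT. Its replicates 1 and 2 thus differed, unlike those of the pair. Mir540 had 161, 151 and 26.1 CPM in Fbxw7 KO replicates 1 to 3 and 221 to 234 CPM in WT. In Fbxw7 KO replicate 3 it was thus lower than in WT, unlike the pair. Mir6236 had 149.5, 155.6 and 24.8 CPM in Fbxw7 KO, and in replicate 3 it was within the WT range of 23.9 to 31.5 CPM. The pair in replicate 3 was still above its own WT range.

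**Figure D5:**
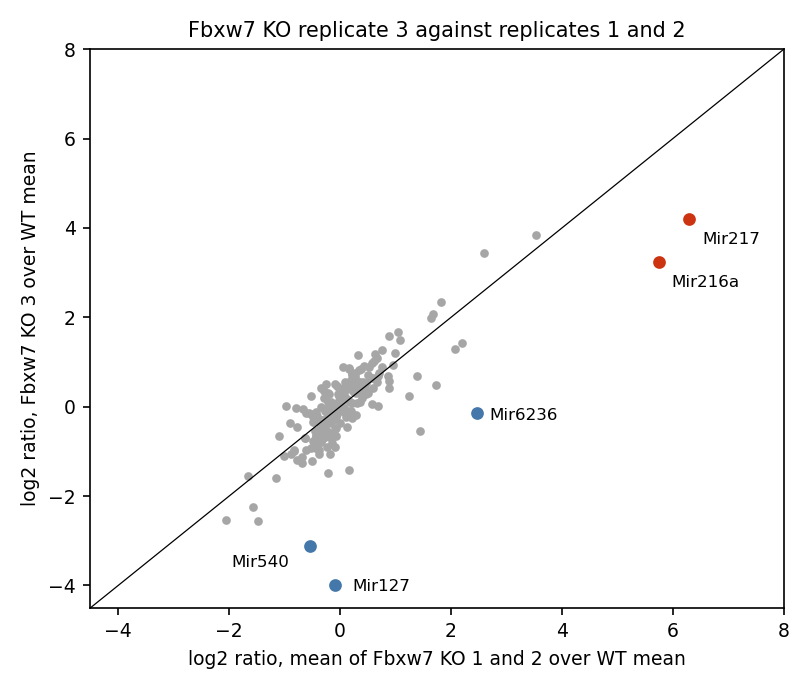
Log2 ratio to the WT mean of Fbxw7 KO replicate 3 (vertical) against that of the mean of Fbxw7 KO replicates 1 and 2 (horizontal) for 218 tested rows with at least 10 CPM in Fbxw7 KO. The line marks equal ratios. Mir217 (6.30 and 4.19) and Mir216a (5.76 and 3.23) are in red, and the other rows with the lowest replicate 3, Mir127, Mir6236 and Mir540, are in blue.

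Across the 6 libraries the tested row most like Mir217 was Mir216a, and the reverse also held, with Pearson's r of 0.987 between their log2 CPM. The next rows for Mir217 were Mir708 (0.983), Mir592 (0.970), Mir186 (0.966) and Mir331 (0.959). For Mir216a they were Mir592 (0.967), Mir708 (0.964), Mir3535 (0.963) and Mir6240 (0.960). These values are a description over 6 libraries that share genotype, so any row that differs between genotypes scores high, whatever the size of its difference. Mir186, for example, stood at 807 ± 16.2 CPM in the WT libraries and 1102 ± 35.1 CPM in the Fbxw7 KO libraries (SD, n = 3 each). Mir708 and Mir592 also had Fbxw7 KO replicate 3 as the lowest Fbxw7 KO library, at 190.6 CPM against 325.5 and 320.7 for Mir708 and at 70.4 against 117.03 and 124 for Mir592. So did Mir3535, at 29.2 CPM against 69.7 and 68.6, and Mir331, at 101.2 against 113.6 and 118.5. Mir186 did not, with 1086 CPM in replicate 3 and 1078 in replicate 1.

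No other counted row lay near the pair. Within 5000000 bases on either side the table has 3 other rows, Mir6372, Mir216b and Mir216c, and all 3 were at 0 in every library. The nearest rows with counts, picked after their values were seen, were Mir1933, 7412337 bases before Mir216a, and Mir218-2, 6852981 bases after Mir217. Mir1933 averaged 1.64 CPM over the WT and 1.56 CPM over the Fbxw7 KO libraries, and Mir218-2 averaged 442 and 465 CPM. Of the 21 other tested rows on chromosome 11, 2 were called higher and 1 lower in Fbxw7 KO, where 15.2% and 10.2% of all tested rows were. Their median log2 fold change was −0.09, beside 0.05 over all tested rows.

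Other miRNAs known from the pancreas were either too scarce for the test or did not pass it. Mir148a, which is abundant in acinar cells but also in many other tissues, stood at 32765 ± 5303 CPM in the WT and 35399 ± 4211 CPM in the Fbxw7 KO libraries (log2 fold change 0.11, SE 0.154, edgeR adjusted p = 0.643, SD over n = 3). Mir375, the defining miRNA of pancreatic islet cells, had 2, 6 and 0 reads in WT and 3, 4 and 2 in Fbxw7 KO, too few to be tested. Of the other islet miRNAs, Mir7-1 stood at 20.1 ± 1.40 CPM in the WT and 26.3 ± 9.60 CPM in the Fbxw7 KO libraries (log2 fold change 0.39, adjusted p = 0.295). Mir7-2, Mir7b and Mir184 had at most 27 reads in any library. Mir802 had 0 reads. With 3 reads taken as the limit, that allows up to 0.226 CPM over the WT libraries and 0.305 CPM over the Fbxw7 KO libraries. These 2 limits use library totals without TMM factors and hold only if its row overlaps no other.

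Epithelial miRNAs held a small part of the counts, as did the pair, with Mir217 at 69.7, 75.7 and 16.9 CPM in Fbxw7 KO replicates 1 to 3. The 7 rows of the epithelial list (the miR-200 family hairpins, Mir203 and Mir205) held 0.00211% to 0.00262% of counts in WT and 0.00168% to 0.00618% in Fbxw7 KO. Mir203, a skin and epithelial miRNA and the only one of them with enough reads for the test, had 59.3, 45.5 and 13.3 CPM in Fbxw7 KO replicates 1 to 3 and 18.7 to 20.0 CPM in WT. Its order among the Fbxw7 KO libraries placed replicate 3 lowest, as for the pair, but there it fell below WT. Its edgeR adjusted p was 0.133 (log2 fold change 1.02, SE 0.442). Of 15 alternatives 1 called it, edgeR without Fbxw7 KO replicate 3 (adjusted p = 0.000556). In the other alternatives it was not called, with an adjusted p of up to 0.394, from edgeR without Fbxw7 KO replicate 1. Whether epithelial cells have a part in the level of the pair was not tested. The neuronal, muscle, blood, endothelial, liver and pluripotent cell lists each held at most 0.0722% of counts in any library. Of their 44 rows 21 stood at 0, beside 41.9% of all rows. Of their 9 tested rows edgeR called 0, beside 25.4% of all tested rows, with 3 at an unadjusted p under 0.05, 2 called by DESeq2 and 0 by limma on FPKM. A row at 0 does not measure a level where it overlaps another row, as for Mir216b, and overlap is not given here for these lists. In the fibroblast list 2 of 15 rows also stood at 0. The rows at 0 therefore do not show that a cell type was absent.

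Other miRNAs that share a reported target or inducer with the pair were looked at in lists for Sirt1 and TGF-beta. Of 5 other tested miRNAs reported to repress Sirt1, Mir34a rose, 0 fell and 4 did not pass, where 15.2% of all tested rows were called higher and 10.2% lower. At an unadjusted p under 0.05 there were 2, DESeq2 called 2 and limma on FPKM called 1. Mir34a averaged 415 ± 65.6 CPM over the WT and 583 ± 21.6 CPM over the Fbxw7 KO libraries (log2 fold change 0.49, SE 0.143, edgeR adjusted p = 0.0365). That call ended without WT replicate 2 or 3 or without Fbxw7 KO replicate 1 or 2, with an adjusted p of up to 0.151. The other row that DESeq2 called was Mir132, named after its values were seen, which was lower in Fbxw7 KO at 286 ± 49.7 CPM against 414 ± 73.6 CPM (SD, n = 3 each). Its log2 fold change was −0.53 (SE 0.186, edgeR adjusted p = 0.0700, DESeq2 adjusted p = 0.0331), and its adjusted p ranged from 0.0278 to 0.259 over all alternatives run. In the list of TGF-beta responsive kidney miRNAs, Mir192 stood at 360 ± 22.7 CPM in the WT and 359 ± 3.03 CPM in the Fbxw7 KO libraries. With Mir21a (log2 fold change 0.15, edgeR adjusted p = 0.338) it was 1 of 2 tested rows of that list, of which edgeR called 0, also at an unadjusted p under 0.05, and DESeq2 and limma on FPKM called 0. Of all tested rows 25.4% were called, and 2 rows are too few to read against that share.

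Mir217hg starts before all 3 plus-strand hairpins but contains neither Mir216a nor Mir217. The start of Gm12082, which contains both, is nearer to the pair, 5379 bases before Mir216a. No promoter window of Gm12082 was among the sources used here, so that promoter was not analysed. The RefSeq promoter window of Mir217hg covers 250 bases before to 50 after the start. It is shown because Myc, Jun and Notch, which FBXW7 degrades, act on DNA through known motifs. Capitals mark matches to the general E-box CANNTG (chr11:28730383-28730682, plus strand, GRCm38.p6).
Mir217hg: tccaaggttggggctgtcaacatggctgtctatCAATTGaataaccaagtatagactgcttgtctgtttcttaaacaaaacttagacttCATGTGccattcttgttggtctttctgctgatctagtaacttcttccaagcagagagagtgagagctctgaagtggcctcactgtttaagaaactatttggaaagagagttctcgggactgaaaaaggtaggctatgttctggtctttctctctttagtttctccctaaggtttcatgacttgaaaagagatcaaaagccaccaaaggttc
The window held 2 matches to CANNTG, which 72.3% of 32851 RefSeq promoter windows of this length hold. The letters of the Myc E-box CACGTG (a special case of CANNTG, in 7.15% of windows), the AP-1 motif TGANTCA of Jun (7.81%) and TGGGAA of RBPJ, the Notch partner (25.6%), searched on both strands, are not in this window. Which start was used in these cells was not measured. Whether Myc, Jun or Notch act on the pair was not tested, and a letter search of this window cannot decide it.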

How the data were processed

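Small RNA libraries were made with Illumina TruSeq chemistry, per the labels' protocols. Per the file headers, the authors counted reads per miRNA name with featureCounts 1.6.4, ignoring strand, and deposited raw counts. Per the submitters' processing notes, the build was mm10 and tools included TopHat2 2.1.1, SAMtools 1.5 and Cufflinks 2.2.1. Trimming is not given in the sources used here. The deposited FPKM equal count per row length and TMM-scaled total within a relative 1e-06 in all 1155 rows, so they hold no separate measurement.

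The edgeR 4.0.16 test under R 4.3.3 (quasi-likelihood, robust, TMM, 2-sided, genotype only) was run on these counts. The filterByExpr function (minimum count 10, minimum total 15) left 283 rows, with Benjamini-Hochberg adjustment over these and a threshold of 0.05. Nothing says the replicates are separate cultures or embryos, so a p-value reflects the spread of these libraries alone, possibly technical. The log2 CPM used a prior count of 2. Replicates differed beyond sampling noise. The test was also run on simulated counts, with smaller fold changes than those of the pair, which that run does not cover. Alternatives used DESeq2 1.42.0, limma 3.58.1 on log2(FPKM + 1 or 0.1), other scalings and filters, a replicate block and leave-outs.

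A further list of miRNAs is not reported here. The members and lists were chosen with earlier results of these data known. Named rows are the pair, its neighbours and seed relatives, rows within 5000000 bases, the pancreas lists, up to 4 rows of each other list (called rows first, otherwise the most abundant), the 5 rows most like each member, and the 5 with the lowest Fbxw7 KO replicate 3. Mir132, Mir672, Mir1933 and Mir218-2 lie outside this rule and were named after their values were seen. Mir7-1 and Mir7-2 are the table's names for Mir7a-1 and Mir7a-2, per RefSeq synonyms. Intervals cover counting error only, since reads carry no molecular identifiers.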

Additional observations from a re-analysis of the deposited data

How the results depend on the processing

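The log2 fold changes of Mir217 and Mir216a kept their direction and moved by less than the spread between replicates under every alternative run. Over alternatives that kept all libraries they lay between 5.49 and 5.88 for Mir217 and between 4.67 and 5.23 for Mir216a. The lowest values came from limma on FPKM with a pseudocount of 1. With at least 10 CPM required in 3 libraries Mir216a was not tested. Leaving out 1 library gave 5.49 to 6.26 for Mir217 and 4.74 to 5.59 for Mir216a, both highest without Fbxw7 KO replicate 3. The number of rows called was 72, and ranged from 34 to 78 with 1 library left out. It was 42 without WT replicate 1, fell to 35 without WT replicate 2, and was lowest, at 34, without Fbxw7 KO replicate 2. The labels number replicates 1 to 3 in both genotypes. The deviations of same-numbered libraries from their group means correlated at −0.06, 0.14 and 0.16, and WT replicate 1 correlated best with Fbxw7 KO replicate 2, so the numbers were not taken as pairs. With the replicate number as a block, 76 rows were called and the log2 fold changes were 5.80 for Mir217 and 5.14 for Mir216a. The lists of most similar rows depended on the measure: with Spearman's rho in place of Pearson's r, 1 of the 5 rows was shared for each member, and with a prior count of 0.5 all 5 were. Depth limits the WT levels of the pair, which rest on 16 reads.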
